A study of Mus musculus with 20 samples.

Results

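Interferon-stimulated genes (ISGs) are genes whose transcription rises when a cell receives interferon. Here 50 ISGs, taken from a list of symbols, were followed in microglia sorted after spinal cord injury (SCI), and all 50 were among the 16810 genes of the expression table. The list was not chosen by the values described here, but it was written with earlier results of these data known. Microglia, the resident macrophages of the central nervous system, were isolated by flow cytometry, as cells with high eGFP, from adult male CX3CR1+/eGFP mice on a C57BL/6 background. These mice are heterozygous for an eGFP reporter at the *Cx3cr1* locus, which is active in microglia and in circulating monocytes, so that every group, controls included, has 1 functional copy of *Cx3cr1*. The cells came from a segment of thoracic spinal cord centred on the lesion, or from the equivalent segment of non-injured (NI) mice (3 samples). Lesions at thoracic level were a lateral hemisection (HS), with 3 samples 72 h later, 2 after 1 week and 3 after 2 weeks, or a full transection (FT), with 3 samples per time. Mice outnumbered libraries in the methods of the study, but how mice were combined into libraries is not given in the sources used here, so p-values measure the spread between these samples.

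Values are CPM, read counts that the authors scaled to an effective size of each library, so the columns do not share 1 total. They summed to 777426 to 830481 CPM in NI and to 1071940 to 1202190 CPM at 72 h after HS. In each sample 3.87 to 34.1 M reads (M, mega) lay on the genes of the table. No member had 3 reads or fewer in any sample. A list of 8 microglia markers, among them *P2ry12* and *Tmem119*, summed to 14140 to 26930 CPM per sample. By the test used below, *Fcrls* of this list was higher at 72 h after both lesions and at 1 week after FT, *Tmem119* was lower at 72 h after both lesions and *P2ry12* was lower at 2 weeks after FT. A list of 8 monocyte markers summed to 33.3 to 40.9 CPM in NI, 547 to 729 CPM at 72 h after HS and 498 to 1164 CPM at 72 h after FT, and was 185 to 466 CPM in the later groups. In the injured groups most of that sum was *Fn1*, with group means of 12.9 CPM in NI and 234 to 597 CPM after injury, while *Ly6c2* was at means of 1.01 to 4.64 CPM. Of the 8, 3 were higher by the test used below at 72 h after HS, 6 at 72 h after FT and 1 in each later group. FT 1 week replicate 1 stood apart: it was the lowest of its group for 39 of the 50 members, against 36.5% of all genes. Its microglia marker sum was also low, at 14140 CPM against 26720 and 26930 CPM in replicates 2 and 3. FT 72 h replicate 1 was likewise the lowest for 39 members (32.6% of all genes) and HS 2 weeks replicate 1 for 37 (31.7% of all genes). In bulk samples, fewer cells of a type and less RNA per cell cannot be told apart.

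Type I interferons, such as interferon beta, signal through a receptor whose kinases JAK1 and TYK2 phosphorylate STAT proteins. STAT2 and IRF9 are part of a complex that binds the interferon-stimulated response element (ISRE) in promoters, whereas interferon gamma acts mainly through the gamma-activated site (GAS). Many of the genes so induced encode proteins that sense or block viral nucleic acids, and in the nervous system microglia are among the cells that express them in infection, injury and ageing.

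The promoter sequences of several members are shown first, because they carry the motif that names the response. Promoter windows from 250 bases before to 50 bases after the start site were taken from RefSeq (GRCm38.p6), and 38 of the 50 members had a window. An ISRE, searched as GAAANNGAAA on both strands with overlapping matches allowed, was in the window of 21 of these 38 (55.3%), against 3.99% of 27025 genes with a window. A GAS, searched as TTCNNNGAA, which reads the same on both strands, was in the window of 9 of the 38 (23.7%), against 9.55% of all genes. In the stretches that follow, which end before the start site and run 5′ to 3′ on the strand of the gene, capitals mark the ISRE letters. The first 6 belong to members that were higher after injury in all groups, *Ifitm2* to one that was higher at 72 h, and *Irgm1* and *Igtp* to members that passed the test in no group.
Isg15 (chr4:156200850-156200921, minus strand): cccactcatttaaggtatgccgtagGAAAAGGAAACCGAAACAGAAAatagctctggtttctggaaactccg
Ifit1 (chr19:34640760-34640838, plus strand): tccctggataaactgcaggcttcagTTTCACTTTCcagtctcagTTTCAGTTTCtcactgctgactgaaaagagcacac
Ifit3 (chr19:34583348-34583441, plus strand): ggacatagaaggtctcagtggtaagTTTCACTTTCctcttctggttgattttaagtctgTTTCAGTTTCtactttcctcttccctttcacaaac
Oas1a (chr5:120907526-120907570, minus strand): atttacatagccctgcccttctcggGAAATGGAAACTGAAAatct
Bst2 (chr8:71537562-71537627, minus strand): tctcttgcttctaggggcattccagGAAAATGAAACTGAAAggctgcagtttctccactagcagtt
Rsad2 (chr12:26456538-26456597, minus strand): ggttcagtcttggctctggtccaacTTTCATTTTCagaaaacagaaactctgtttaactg
Ifitm2 (chr7:140955973-140956032, minus strand): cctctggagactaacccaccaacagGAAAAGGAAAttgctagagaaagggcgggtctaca
Irgm1 (chr11:48871421-48871475, minus strand): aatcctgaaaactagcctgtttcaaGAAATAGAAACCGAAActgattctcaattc
Igtp (chr11:58199497-58199555, plus strand): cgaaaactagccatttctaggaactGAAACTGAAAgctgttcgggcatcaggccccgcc
*Isg15* has 3 overlapping matches in a row, and *Ifit1* and *Ifit3* have 2 each on the opposite strand. By response, the ISRE letters were in 12 of the 23 windows of members that were higher 2 weeks after FT (52.2%) and in 9 of the 15 windows of members that were not (60.0%), and at 72 h after HS in 10 of 17 (58.8%) and 11 of 21 (52.4%). A match is a description of letters and not of a bound site.

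Many members also lie side by side in the genome. In the GENCODE vM21 annotation of GRCm38, 24 of the 50 fall into 9 runs with no more than 200 kb between neighbours. *Ifit2*, *Ifit3* and *Ifit1* lie at chr19:34550694-34650009, *Gbp7*, *Gbp3* and *Gbp2* at chr3:142530342-142638008, *Ifitm2*, *Ifitm1* and *Ifitm3* at chr7:140954837-141010770, and *Slfn5*, *Slfn8* and *Slfn2* at chr11:82951349-83070678. Neighbours of this kind are often near copies of each other, and how the counting treated reads that fit several of them is not given in the sources used here, so values within the IFIT, OAS, GBP, IFITM, SLFN and *Ifi204* families are less certain than the rest.

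The first question was how ISG expression differed from NI at each time after each lesion. Log2(CPM + 0.5) was compared with limma over all 20 samples, and a gene was called differentially expressed (DE) when it changed 2-fold or more with an adjusted p under 0.05, by the Benjamini-Hochberg method across all genes. Every DE member was higher after injury, and none was lower. After HS, 24 of the 50 were higher at 72 h (9.08% of all genes tested were DE and higher), 28 at 1 week (1.7%) and 24 at 2 weeks (2.43%). After FT, 30 were higher at 72 h (8.14% of all genes), 31 at 1 week (2.86%) and 32 at 2 weeks (3.53%). All 6 comparisons use the same 3 NI samples, so they are not independent of each other.

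The number of DE genes in the whole table was lower after 72 h, while the number of DE members was not. The median log2 fold change of the 50 members was 0.96, 1.30 and 0.99 for the 3 HS groups and 1.27, 1.46 and 1.45 for the 3 FT groups in order of time, against -0.11 to 0.02 for all genes. Every injured sample lay above every NI sample for 37, 46 and 41 members after HS (24%, 20.2% and 14.5% of all genes) and for 43, 42 and 46 after FT (22.2%, 11.4% and 17.3%). In all, 37 members were DE in at least 1 comparison and 13 in none. Without HS 1 week replicate 1, its group kept 1 sample and 19 members were DE instead of 28, with the lone sample assumed to vary like the others. Without FT 1 week replicate 1, 40 members were DE at 1 week after FT instead of 31. When the columns were instead scaled to the same total, 15 members were DE at 72 h after HS, and that scaling moved the median of all genes to -0.17 to -0.52.

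**Figure D1:**
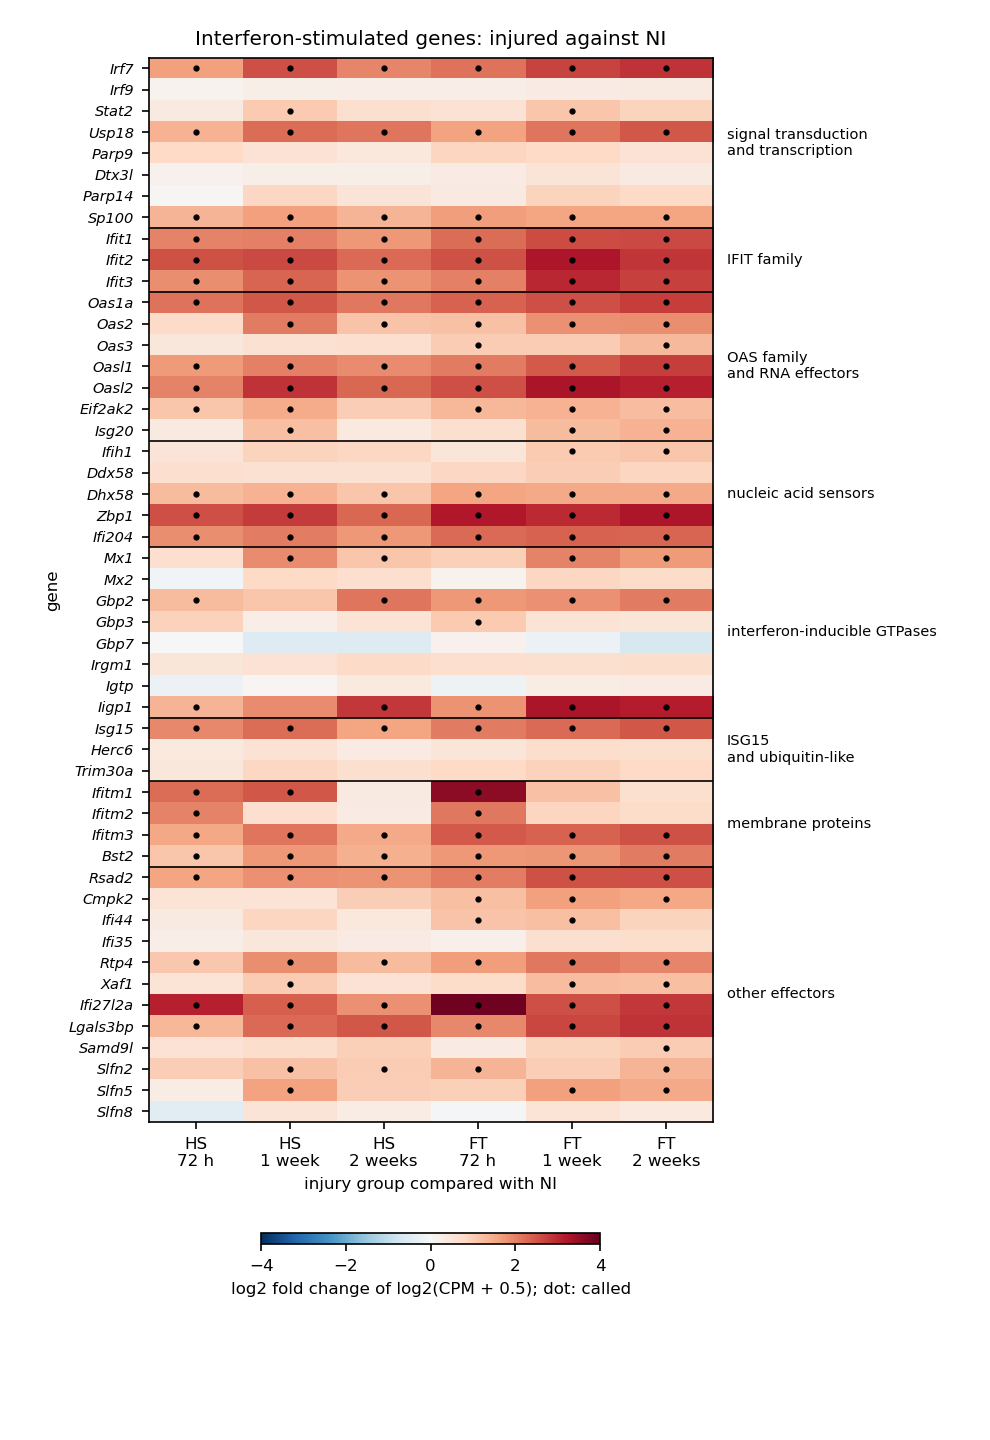
Log2 fold change of each of the 50 members (rows, grouped by role) in the 6 injured groups against NI (columns), on the log2(CPM + 0.5) scale, where red is higher and blue lower and a dot marks a DE member. Between 24 and 32 members per column carry a dot and all of these are higher, while rows such as *Irf9*, *Gbp7* and *Igtp* carry none.

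Of the members that carry or tune the interferon signal, *Irf7*, *Usp18* and *Sp100* were higher in every injured group. *Irf7*, a transcription factor that amplifies type I interferon production, had 20.8, 20.9 and 14.6 CPM in NI. After HS it had 47.5, 60.7 and 68.9 (72 h), 134 and 93.2 (1 week) and 67.8, 56.7 and 99.4 (2 weeks) CPM, and after FT 69.5, 82.95 and 108 (72 h), 76.7, 158 and 151 (1 week) and 201, 132 and 106 (2 weeks) CPM. Every injured sample exceeded every NI sample, and FT 2 weeks replicate 1 held the highest value. Its log2 fold changes from NI were 1.63, 2.57 and 1.94 for HS and 2.18, 2.69 and 2.90 for FT at 72 h, 1 and 2 weeks (standard errors 0.29 to 0.32; largest limma adjusted p = 0.000226). *Stat2* and *Irf9* encode parts of the complex that binds the ISRE. *Stat2* was DE at 1 week, by 1.05 after HS and 1.11 after FT (limma adjusted p = 0.00507 and 0.000543). Not every alternative setting described below kept these DE values. *Irf9* was DE in no comparison, with log2 fold changes of 0.14 to 0.35.

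*Usp18* encodes the protease that strips ISG15 from proteins and restrains the type I interferon receptor. It had 23.4, 14.2 and 18.3 CPM in NI, and after HS 34.5, 65.5 and 51.3 (72 h), 82.5 and 91.5 (1 week) and 58.8, 104 and 89.01 (2 weeks) CPM. After FT the values were 40.3, 66.3 and 65.9 (72 h), 38.7, 113 and 127 (1 week) and 111, 118 and 89.3 (2 weeks) CPM. FT 1 week replicate 1 was lower than the other two samples of its group by more than the whole spread of NI, yet still above NI. The log2 fold changes were 1.39, 2.22 and 2.13 for HS and 1.59, 2.15 and 2.50 for FT (standard errors 0.34 to 0.38; largest limma adjusted p = 0.00441). *Sp100*, a component of nuclear bodies, had 30.8, 20.5 and 21.5 CPM in NI and differed by 1.36, 1.64 and 1.36 for HS and 1.68, 1.59 and 1.58 for FT on the log2 scale (largest limma adjusted p = 0.00492). *Parp9*, *Dtx3l* and *Parp14*, neighbours at chr16:35832874-35972605 that encode ADP-ribosylation and ubiquitin ligase proteins, were DE in no comparison, with log2 fold changes of 0.42 to 0.87, 0.16 to 0.52 and 0.05 to 0.91. Of the 8 members of this class, 3, 4 and 3 were therefore DE after HS and 3, 4 and 3 after FT.

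All 3 members of the IFIT family, whose proteins bind viral RNA and block its translation, were DE in every injured group. *Ifit1* had 6.79, 4.76 and 3.93 CPM in NI. In HS samples the values were 24.8, 21.8 and 18.7 (72 h), 24.2 and 19.97 (1 week) and 13.3, 21.4 and 20.9 (2 weeks) CPM, and in FT samples 21.97, 28.9 and 26.5 (72 h), 14.5, 47.4 and 54.01 (1 week) and 41.3, 33.7 and 28.9 (2 weeks) CPM. The groups did not overlap with NI, but FT 1 week replicate 1 lay among the HS samples while the other two were the highest of all. Relative to NI it differed on the log2 scale by 2.00, 2.02 and 1.75 for HS and 2.24, 2.61 and 2.65 for FT (standard errors 0.34 to 0.38; largest limma adjusted p = 0.00298). *Ifit2* had 13.8, 11.7 and 11.99 CPM in NI and 49.6, 93.8 and 89.5 (72 h), 45.5, 182 and 211 (1 week) and 133, 82.1 and 76.8 (2 weeks) CPM after FT, and its log2 fold changes were 2.54, 2.65 and 2.27 for HS and 2.54, 3.22 and 2.87 for FT (largest limma adjusted p = 0.00192). *Ifit3* had 16.3, 9.52 and 9.40 CPM in NI and 34.2, 56.1 and 55.5 (72 h), 48.8, 129 and 133 (1 week) and 102, 81.4 and 57.9 (2 weeks) CPM after FT, and its log2 fold changes were 1.87, 2.32 and 1.81 for HS and 2.02, 3.00 and 2.73 for FT (largest limma adjusted p = 0.0018). In FT 1 week, replicate 1 was the lowest for all 3.

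The OAS family encodes enzymes and relatives that respond to double-stranded RNA, the enzymes by making a messenger that activates RNase L. Of 7 members in this class with other RNA effectors, 4, 6 and 4 were DE in the 3 HS groups and 6, 6 and 7 in the 3 FT groups, in order of time. *Oas1a* had 7.51, 6.31 and 6.62 CPM in NI. The injured samples held 29.1, 43.1 and 27.3 (72 h), 34.3 and 46.3 (1 week) and 26.04, 31.4 and 36.8 (2 weeks) CPM following HS and 36.1, 33.3 and 42.03 (72 h), 30.7, 49.1 and 53.5 (1 week) and 61.1, 50.2 and 37.3 (2 weeks) CPM following FT. No injured sample came near the NI range. This gave log2 fold changes of 2.18, 2.47 and 2.12 for HS and 2.36, 2.58 and 2.75 for FT (standard errors 0.23 to 0.26; largest limma adjusted p = 4.1e-06). *Oasl2* had 13.8, 9.395 and 8.92 CPM in NI, 37.02, 46.6 and 46.7 (72 h), 91.8 and 73.4 (1 week) and 44.8, 56.2 and 59.9 (2 weeks) CPM after HS, and 51.7, 73.02 and 74.0 (72 h), 57.4, 139 and 143 (1 week) and 121, 83.8 and 81.8 (2 weeks) CPM after FT. Its log2 fold changes of 1.99, 2.91 and 2.29 for HS and 2.58, 3.25 and 3.10 for FT were among the larger of the list (standard errors 0.28 to 0.31; largest limma adjusted p = 1.68e-05). *Oasl1*, a relative without enzyme activity, went from 1.43, 1.67 and 2.01 CPM in NI to 7.49, 8.76 and 10.3 (72 h), 7.93, 13.9 and 13.96 (1 week) and 16.1, 14.3 and 12.8 (2 weeks) CPM after FT, and differed by 1.70, 2.01 and 1.90 for HS and 2.08, 2.46 and 2.76 for FT (largest limma adjusted p = 0.000669).

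The rest of this class was less even across the groups. *Oas2* was DE in every group but HS 72 h, where its log2 fold change was 0.78 (limma adjusted p = 0.0696) and replicate 1 lay within the NI range. At 2 weeks after HS it was not DE without any 1 of the NI or HS 2 weeks samples (limma adjusted p = 0.0802 to 0.119). *Oas3* was DE only at 72 h and 2 weeks after FT, by 1.00 and 1.28. The first of these was not DE in 6 of the alternative settings described below, and the second in 3. *Eif2ak2*, which encodes the RNA-activated kinase PKR, was DE in every group but HS 2 weeks, where it differed by 1.00, just under the fold limit. *Isg20*, an exonuclease, was DE at 1 week after HS (1.21) and at 1 and 2 weeks after FT (1.27 and 1.39). Its DE values at 1 week were not kept in every alternative setting.

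Among the sensors of nucleic acids, some members were DE in every injured group and others in none. *Zbp1* encodes a cytosolic sensor of Z-form nucleic acids that can start cell death. It had 2.503, 2.06 and 2.69 CPM in NI. Hemisected cords gave 15.95, 22.8 and 12.7 (72 h), 18.7 and 20.3 (1 week) and 9.51, 17.3 and 16.2 (2 weeks) CPM and transected cords 19.3, 38.6 and 24.5 (72 h), 22.4, 17.8 and 29.2 (1 week) and 27.8, 25.7 and 26.9 (2 weeks) CPM. The lowest injured sample was still above the highest NI sample, and FT 1 week replicate 1 was not the lowest of its group here. On the log2 scale its differences from NI were 2.56, 2.78 and 2.31 for HS and 3.21, 3.00 and 3.23 for FT (standard errors 0.27 to 0.30; largest limma adjusted p = 4.82e-06). *Ifi204*, of the PYHIN family of DNA-binding proteins, had 29.97, 19.3 and 23.9 CPM in NI and 90.4, 88.9 and 86.1 (72 h), 99.3 and 101 (1 week) and 59.9, 108 and 84.8 (2 weeks) CPM after HS, and after FT 102, 149 and 108 (72 h), 86.1, 139 and 162 (1 week) and 130.3, 122 and 113 (2 weeks) CPM. It differed from NI by 1.86, 2.04 and 1.75 for HS and 2.27, 2.35 and 2.31 for FT (standard errors 0.23 to 0.26; largest limma adjusted p = 3.92e-05).

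The 3 RNA helicases of the RIG-I family were DE in different numbers of groups. *Dhx58* (LGP2), which modulates the other two, had 23.2, 17.5 and 19.4 CPM in NI and 48.5, 47.6 and 49.4 (72 h), 52.8 and 53.7 (1 week) and 35.7, 47.9 and 47.95 (2 weeks) CPM after HS. Its log2 fold changes from NI were 1.27, 1.40 and 1.11 for HS and 1.57, 1.51 and 1.50 for FT (largest limma adjusted p = 0.00671). *Ifih1* (MDA5) was DE only at 1 and 2 weeks after FT (1.06 and 1.11). The first of these was not DE in 3 of the alternative settings described below, and the second in 2. *Ddx58* (RIG-I) was DE in no comparison. All its injured samples lay above NI, but its log2 fold changes of 0.60 to 0.99 stayed under the limit. Whether these genes differ from each other in their change was not tested.

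Interferon-inducible GTPases, which attack the vacuoles of intracellular microbes or viral capsids, had 2, 1 and 3 of 8 members DE after HS and 3, 3 and 3 of 8 after FT. *Iigp1*, an immunity-related GTPase, had 1.97, 2.57 and 1.06 CPM in NI. After HS it had 4.79, 5.28 and 5.95 (72 h), 7.63 and 8.18 (1 week) and 6.86, 23.9 and 22.3 (2 weeks) CPM, and after FT 5.37, 9.06 and 8.46 (72 h), 7.71, 32.8 and 38.6 (1 week) and 14.3, 21.3 and 25.3 (2 weeks) CPM. Most samples from 1 week after FT and from 2 weeks lay above all 72 h samples, with HS 2 weeks replicate 1 and FT 1 week replicate 1 as the exceptions. Between times *Iigp1* was not DE. The log2 fold changes from NI were 1.35, 1.88 and 2.82 for HS and 1.80, 3.27 and 3.15 for FT (standard errors 0.47 to 0.53), DE everywhere but HS 1 week (limma adjusted p = 0.059). At 72 h after HS it was not DE without NI replicate 1 or 3 or without any 1 of the HS 72 h samples (limma adjusted p = 0.062 to 0.156). *Gbp2*, a guanylate-binding protein, had 15.02, 10.4 and 9.11 CPM in NI and 29.99, 28.7 and 25.6 (72 h), 26.96 and 22.98 (1 week) and 26.98, 74.4 and 65.3 (2 weeks) CPM after HS. After FT it had 32.1, 47.3 and 37.9 (72 h), 19.2, 61.6 and 57.7 (1 week) and 35.2, 62.2 and 54.8 (2 weeks) CPM. It was DE in every group but HS 1 week, with log2 fold changes of 1.28, 1.11 and 2.13 for HS and 1.73, 1.82 and 2.08 for FT (limma adjusted p = 0.204 in HS 1 week and at most 0.0138 elsewhere).

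Several close relatives of these genes were DE in few groups or none. *Gbp3* was DE at 72 h after FT alone (1.04), and *Gbp7*, its neighbour, had log2 fold changes of -0.64 to 0.18 and no injured sample above the highest NI sample. At 72 h after FT *Gbp3* was not DE in 3 of the alternative settings described below. *Irgm1* and *Igtp*, regulatory immunity-related GTPases whose promoters carry the ISRE letters shown above, had log2 fold changes of 0.48 to 0.76 and -0.24 to 0.38, none of them DE. *Mx1*, which encodes a GTPase that traps viral ribonucleoproteins and carries a disabling deletion in C57BL/6 mice, was DE in 4 groups and is described with the times. *Mx2*, its neighbour at chr16:97447035-97560900, was DE in none (-0.11 to 0.82).

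*Isg15* encodes a ubiquitin-like protein that is attached to other proteins. It had 8.88, 9.91 and 11.1 CPM in NI. In HS samples the values were 41.1, 44.0 and 33.01 (72 h), 49.2 and 47.99 (1 week) and 23.1, 29.3 and 41.6 (2 weeks) CPM, and in FT samples 38.6, 49.95 and 44.1 (72 h), 45.95, 44.02 and 61.4 (1 week) and 51.6, 59.6 and 61.6 (2 weeks) CPM. All injured samples exceeded NI, with the lowest values in HS 2 weeks and a narrow spread in FT 2 weeks. Relative to NI it differed on the log2 scale by 1.92, 2.23 and 1.57 for HS and 2.09, 2.27 and 2.47 for FT (standard errors 0.20 to 0.23; largest limma adjusted p = 2.14e-05). *Herc6*, the mouse ligase for ISG15, was DE in no comparison (0.32 to 0.69), and neither was *Trim30a*, a ubiquitin ligase of the TRIM family (0.44 to 0.91).

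**Figure D2:**
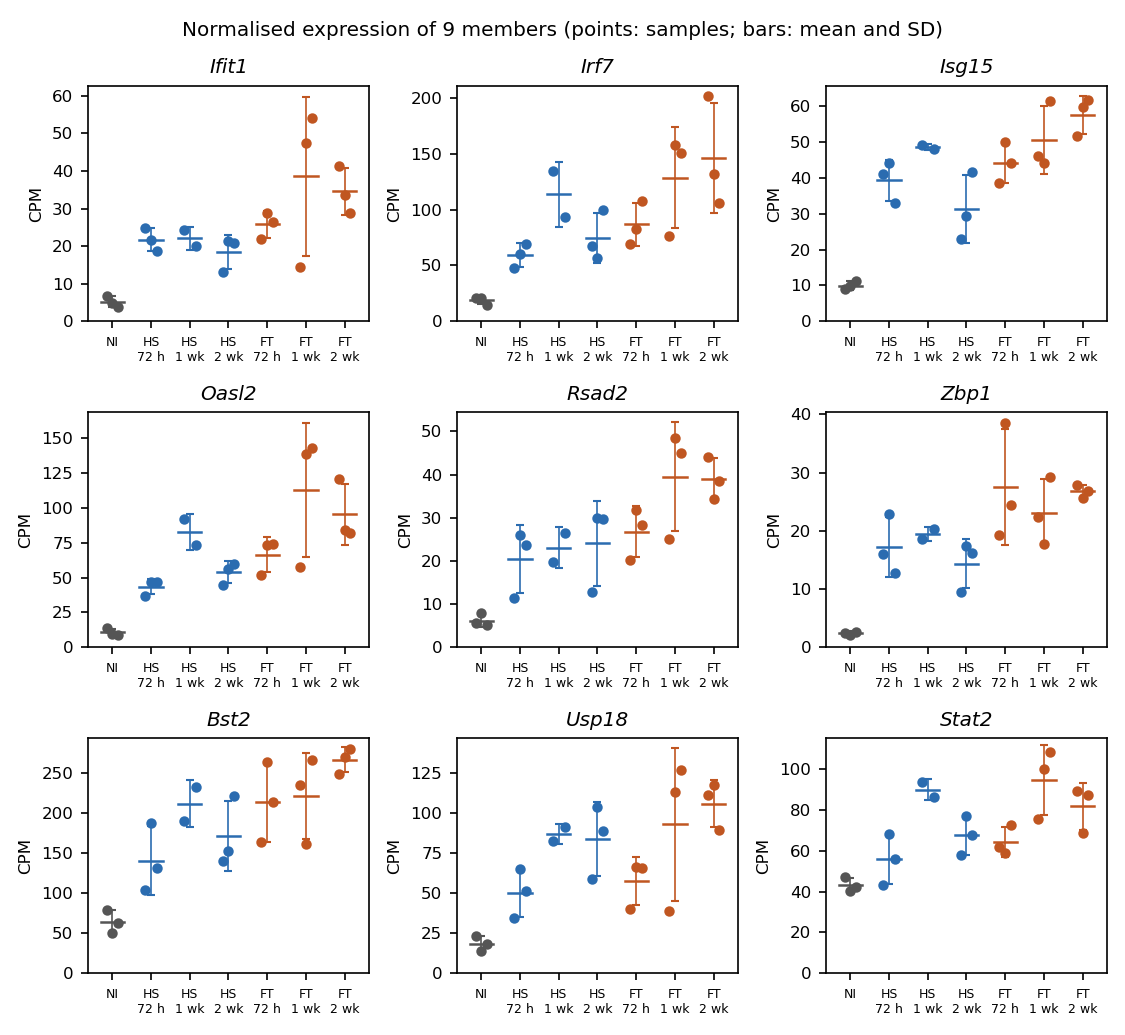
Normalised expression (CPM, linear axis from 0) of 9 members in each sample (points), with the mean and SD of each group (bars), for NI, HS and FT. In 8 of the panels every injured sample lies above every NI sample, in *Stat2* HS 72 h replicate 1 does not, and the low point of FT 1 week is replicate 1 for *Ifit1*, *Irf7*, *Oasl2*, *Rsad2*, *Stat2* and *Usp18* but not for *Isg15*, *Zbp1* or *Bst2*.

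Membrane proteins that restrict viruses were DE at 72 h for all 4 members after both lesions, and for fewer members later. *Ifitm3*, which hinders the fusion of viruses with endosomes, had 53.7, 47.2 and 67.2 CPM in NI. The injured samples held 143, 211 and 148 (72 h), 222 and 271 (1 week) and 114, 195 and 185 (2 weeks) CPM following HS and 263, 442 and 251 (72 h), 322, 219 and 339 (1 week) and 319, 313 and 339 (2 weeks) CPM following FT. It was above NI in all samples, by 1.56, 2.14 and 1.52 for HS and 2.46, 2.37 and 2.53 for FT on the log2 scale (standard errors 0.24 to 0.27; largest limma adjusted p = 0.000351). *Bst2*, or tetherin, which holds budding virions at the cell surface, had 79.2, 50.1 and 62.2 CPM in NI. Hemisected cords gave 104, 187 and 131 (72 h), 191 and 232 (1 week) and 140, 152 and 222 (2 weeks) CPM and transected cords 164, 264 and 214 (72 h), 235, 162 and 266 (1 week) and 249, 269.5 and 279.9 (2 weeks) CPM. This gave log2 fold changes of 1.12, 1.74 and 1.41 for HS and 1.74, 1.78 and 2.08 for FT (standard errors 0.25 to 0.27; largest limma adjusted p = 0.00176). *Ifitm1*, *Ifitm2* and *Ifitm3* were also on a list of pro-inflammatory genes that the study drew up on these samples, so that their direction is not independent evidence.

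In the mixed class of other effectors, 4, 7 and 5 of 12 members were DE after HS and 7, 8 and 9 after FT. *Rsad2* encodes viperin, an enzyme that makes a chain-terminating nucleotide. It had 5.54, 7.85 and 5.08 CPM in NI. After HS it had 11.5, 26.01 and 23.8 (72 h), 19.7 and 26.5 (1 week) and 12.8, 29.9 and 29.6 (2 weeks) CPM, and after FT 20.2, 31.8 and 28.3 (72 h), 25.1, 48.5 and 44.9 (1 week) and 43.99, 34.2 and 38.6 (2 weeks) CPM. Replicate 1 was the lowest sample of each injured group except FT 2 weeks, where it was the highest. On the log2 scale its differences from NI were 1.59, 1.83 and 1.81 for HS and 2.03, 2.55 and 2.58 for FT (standard errors 0.33 to 0.37; largest limma adjusted p = 0.00531). *Cmpk2*, a mitochondrial nucleotide kinase next to *Rsad2* at chr12:26442746-26479837, was DE in the 3 FT groups (1.21, 1.66 and 1.56) and not in the HS groups (0.56, 0.55 and 0.99). *Rtp4*, which encodes a receptor-transporting protein, had 31.04, 22.4 and 28.9 CPM in NI and differed by 1.07, 1.87 and 1.28 for HS and 1.66, 2.12 and 1.96 for FT (largest limma adjusted p = 0.00676).

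*Lgals3bp* encodes a secreted glycoprotein that binds galectin 3. It had 241, 183 and 185 CPM in NI. In HS samples the values were 453, 551 and 509 (72 h), 1014 and 934 (1 week) and 1192, 919.9 and 1297 (2 weeks) CPM, and in FT samples 584, 794 and 941 (72 h), 862, 1585 and 1557 (1 week) and 1811, 1386 and 1332 (2 weeks) CPM. No injured sample overlapped NI, and within HS no 72 h sample reached the later ones. Its log2 fold changes from NI were 1.32, 2.27 and 2.48 for HS and 1.91, 2.67 and 2.89 for FT (standard errors 0.24 to 0.27; largest limma adjusted p = 3e-04). Of the remaining members, *Slfn5* and *Slfn2*, Schlafen genes linked to growth control in immune cells, were DE in 3 and 4 groups, while their neighbour *Slfn8* was DE in none (-0.41 to 0.55). At 2 weeks after HS *Slfn2* was not DE in 8 of the alternative settings described below. *Xaf1* was DE in 3 groups, *Ifi44* in 2 and *Samd9l* in 1, and *Ifi35* in none (0.19 to 0.70). Not every alternative setting kept the DE values of *Xaf1*, *Ifi44* and *Samd9l*.

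The second question was whether ISG expression differed between times within a lesion. Few of the 50 members were DE between times, and those that were went in both directions. The list as a whole nevertheless leaned upward from 72 h to 1 week. For that step, 15 members in HS and 15 in FT rose with an unadjusted limma p under 0.05. Members falling by the same rule numbered 2 (HS) and 3 (FT). After HS, 3 members were DE and higher at 1 week than at 72 h (1.95% of all genes) and 1 was lower (4.07%), and at 2 weeks against 72 h 1 was higher (1.37%) and 3 were lower (3.37%). After FT, 1 was higher (0.827%) and 3 were lower (2.62%) at 1 week, and 0 were higher (1.13%) and 3 were lower (2.68%) at 2 weeks. Between 1 and 2 weeks no member was DE after HS (0.0119% of all genes in either direction) or after FT (0.0714%), and at an unadjusted limma p under 0.05 1 member was higher (1.74% of all genes) and 8 were lower (2.96%) at 2 weeks after HS and 0 differed after FT (4.6% in either direction). edgeR and DESeq2 on the recovered reads also called no member between 1 and 2 weeks. Comparisons within a lesion share the 72 h samples. The fitted difference from 72 h to 1 week was positive for 42 members in HS (55.1% of all genes) and 38 in FT (53.3%). Its medians over the members were 0.297 and 0.3 on the log2 scale. From 72 h to 2 weeks the counts were 31 (54.3%) and 38 (54.4%), with medians of 0.105 and 0.344. From 1 to 2 weeks they were 10 (51.1%) and 23 (51.6%). Signs of members are not independent, and these counts were not recomputed without single samples.

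The members that fell after 72 h were *Ifitm2*, *Ifitm1* and *Ifi27l2a*. *Ifitm2* was DE between times in 4 comparisons. Its level was 37.2, 31.4 and 32.7 CPM in NI. After HS it was 175, 136 and 104 (72 h), 53.4 and 54.1 (1 week) and 41.3, 38.3 and 46.9 (2 weeks) CPM, and after FT 189, 157 and 106 (72 h), 57.2, 52.5 and 79.5 (1 week) and 50.5, 58.2 and 60.2 (2 weeks) CPM. All 72 h samples lay above all others, and all later samples lay above NI. Against 72 h, *Ifitm2* fell by 1.32 at 1 week and 1.68 at 2 weeks after HS on the log2 scale, and by 1.24 and 1.38 after FT (limma adjusted p = 0.00111, 1.6e-05, 0.000764 and 0.000207). Against NI it was DE at 72 h only, by 1.99 after HS and 2.11 after FT.

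*Ifi27l2a*, which encodes a small membrane protein of the IFI27 family, was still DE against NI at 1 and 2 weeks. It had 35.9, 28.4 and 30.2 CPM in NI. The injured samples held 226, 339.7 and 268 (72 h), 162 and 173 (1 week) and 96.5, 112 and 136 (2 weeks) CPM following HS and 304, 663 and 534 (72 h), 253, 133 and 197 (1 week) and 216, 251 and 213 (2 weeks) CPM following FT. All later samples were below the 72 h samples of the same lesion and still above NI. The log2 fold changes were 3.11, 2.40 and 1.84 for HS and 3.90, 2.57 and 2.83 for FT (standard errors 0.25 to 0.28; largest limma adjusted p = 4.73e-05). Against 72 h it fell by 1.26 at 2 weeks after HS, and by 1.34 and 1.07 at 1 and 2 weeks after FT (limma adjusted p = 0.00231, 0.00176 and 0.0113).

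*Ifitm1* was measured near the floor in NI, with 4 to 8 reads per sample, so its fold changes depend on the 0.5 CPM added. It had 0.477, 0.515 and 0.4796 CPM in NI. Hemisected cords gave 5.68, 4.52 and 2.67 (72 h), 5.17 and 4.81 (1 week) and 0.624, 0.855 and 0.845 (2 weeks) CPM and transected cords 38.9, 9.64 and 3.56 (72 h), 3.56, 0.851 and 1.498 (1 week) and 0.468, 2.003 and 1.07 (2 weeks) CPM. FT 72 h replicate 1 was far above the other two, and both monocyte (1164 CPM) and border-associated macrophage (372 CPM) marker sums were highest in that same sample. *Ifitm1* was DE against NI at 72 h after both lesions (2.22 and 3.57) and at 1 week after HS (2.47), where it was not DE without any 1 of the NI or HS 1 week samples (limma adjusted p = 0.0775 to 0.2). At 1 week after FT its log2 difference from 72 h was -2.40 (limma adjusted p = 0.00974), and without FT 72 h replicate 1 it was -1.53 (limma adjusted p = 0.0668) and without FT 1 week replicate 2 -2.05 (limma adjusted p = 0.0606). At 2 weeks after FT its difference from 72 h was -2.91 (limma adjusted p = 0.00165) and after HS -1.86 (limma adjusted p = 0.0323). The difference after HS was not DE without HS 72 h replicate 1 or 2 or without any 1 of the HS 2 weeks samples (-1.65 to -1.91, limma adjusted p = 0.0668 to 0.149), nor with 1 CPM added (-1.53, limma adjusted p = 0.0502). The monocyte marker sum was also highest at 72 h, as given above, and its part in the fall of these 3 genes was not tested.

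The members that rose after 72 h were *Oas2*, *Mx1* and *Slfn5* at 1 week after HS, *Mx1* at 1 week after FT and *Lgals3bp* at 2 weeks after HS. *Mx1* had 15.02, 17.9 and 15.4 CPM in NI. After HS it had 16.4, 30.6 and 34.03 (72 h), 63.6 and 59.5 (1 week) and 24.01, 44.9 and 41.3 (2 weeks) CPM, and after FT 31.3, 29.2 and 34.2 (72 h), 41.1, 78.8 and 83.8 (1 week) and 56.2, 53.98 and 51.2 (2 weeks) CPM. All samples at 1 week were above all samples at 72 h of the same lesion. The log2 difference from 72 h to 1 week was 1.24 after HS and 1.03 after FT (limma adjusted p = 0.0122 and 0.027). *Oas2* had 7.23, 12.1 and 19.9 CPM at 72 h and 33.6 and 28.03 CPM at 1 week after HS, a log2 difference of 1.31 (limma adjusted p = 0.0207). *Slfn5* had 22.5, 48.6 and 37.9 CPM and 91.6 and 83.8 CPM in the same groups, a log2 difference of 1.33 (limma adjusted p = 0.00437). *Lgals3bp* was 1.16 higher at 2 weeks than at 72 h after HS (limma adjusted p = 0.00307).

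These differences in time rest on few samples. The HS 1 week group has 2 samples, and without replicate 1 of it only 1 member was DE between 72 h and 1 week. Without HS 72 h replicate 1 it was 2 members, and without HS 1 week replicate 2 also 2. Without FT 1 week replicate 1, 10 members were DE between 72 h and 1 week after FT instead of 4, and without FT 72 h replicate 1 or FT 1 week replicate 2 it was 2. *Oas2* was not DE without HS 72 h replicate 1 (log2 difference 0.96, limma adjusted p = 0.126), HS 72 h replicate 2 or either HS 1 week sample. *Mx1* after HS was not DE without HS 72 h replicate 1 (0.92, limma adjusted p = 0.0802) or either HS 1 week sample, and *Slfn5* was not without HS 1 week replicate 1 (limma adjusted p = 0.06). After FT *Mx1* was not DE without any 1 of the FT 72 h samples, without FT 1 week replicate 2 (0.89) or replicate 3 (0.84), or when only the 2 groups were fitted (limma adjusted p = 0.0504 to 0.108). *Ifi27l2a* at 2 weeks after FT was not DE against 72 h without FT 72 h replicate 2 (-0.83), FT 72 h replicate 3 or FT 2 weeks replicate 3 (limma adjusted p = 0.0505 to 0.0817).

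**Figure D3:**
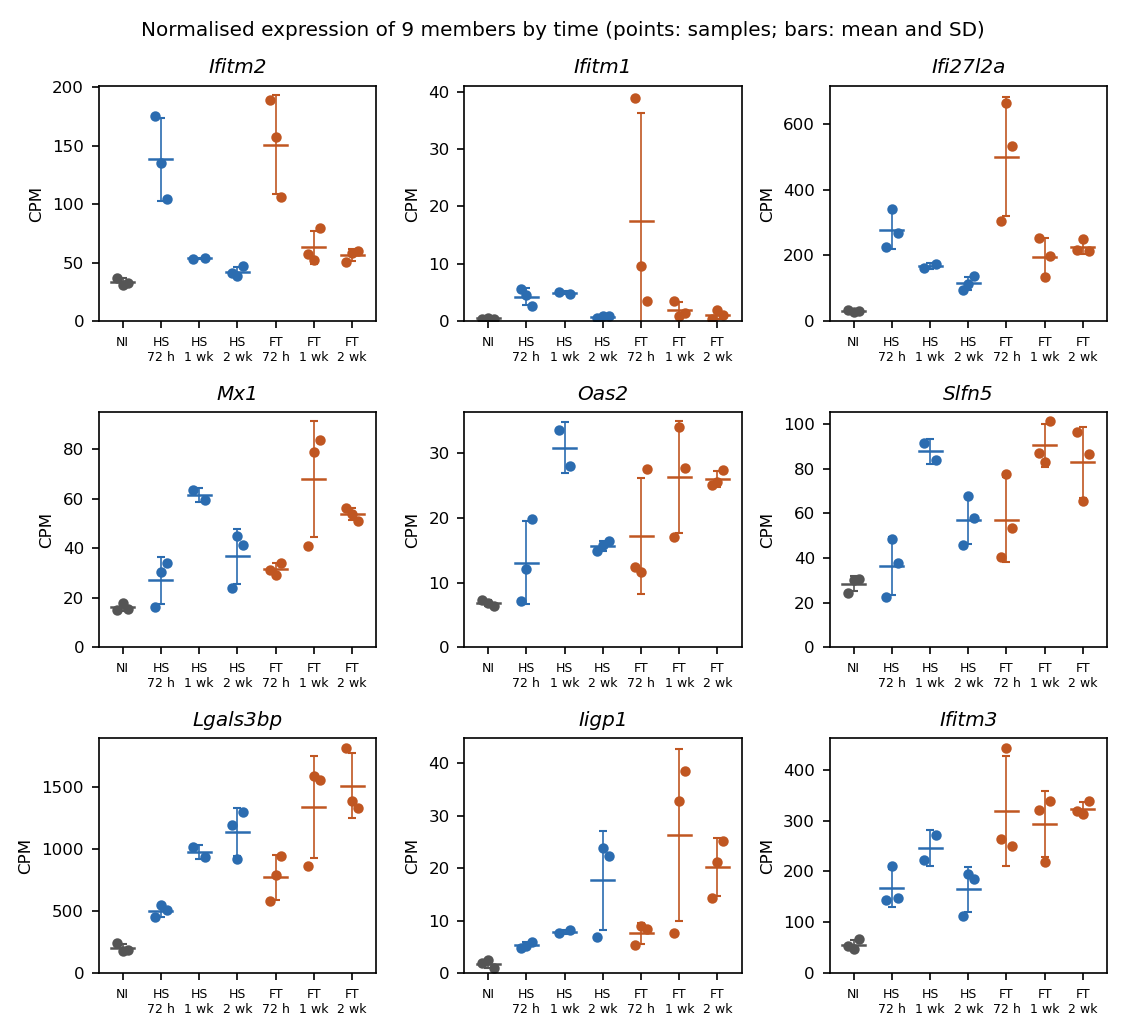
Normalised expression (CPM, linear axis from 0) of 9 members by time after injury, with each sample as a point and the mean and SD of each group as bars, and with the lower SD arm of *Ifitm1* at FT 72 h ending at the axis because it runs below 0. *Ifitm2* lies at 104 to 189 CPM at 72 h and at 38.3 to 79.5 CPM later, while *Mx1*, *Lgals3bp* and *Iigp1* show their highest values at 1 or 2 weeks. *Iigp1* and *Ifitm3* were not DE between times.

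The third question was whether ISG expression differed between the severities. No member was DE between FT and HS at 72 h, 1 week or 2 weeks (0%, 0% and 0% of all genes), and edgeR and DESeq2 called none either. At an unadjusted limma p under 0.05, 11 members were higher after FT at 72 h (1.71% of all genes), 2 at 1 week (1.72%) and 19 at 2 weeks (1.36%), and 1 member was lower after FT, at 1 week. The fitted difference was above 0 for 46 of the 50 members at 72 h (47.7% of all genes), 44 at 1 week (48.3%) and 45 at 2 weeks (51.4%). The members thus lay mostly on the FT side, by a median of 0.29, 0.18 and 0.40 on the log2 scale. They were all measured in the same 2 or 3 samples per group, so their signs are not independent of each other. Single samples of both lesions were the lowest of their group for many members, as given above. These sign counts and medians were not recomputed without single samples. With columns scaled to the same total, 28 members lay on the FT side at 1 week.

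Values of single members give the size of these differences and their intervals. At 2 weeks *Isg15* had 51.6, 59.6 and 61.6 CPM after FT and 23.1, 29.3 and 41.6 CPM after HS. The groups did not overlap, and the FT minus HS difference was 0.91 (95% interval 0.49 to 1.32; limma adjusted p = 1). *Ifitm3* had 319, 313 and 339 CPM after FT and 114, 195 and 185 CPM after HS, a difference of 1.01 (0.50 to 1.52). *Ifi27l2a* differed by 0.99 (0.46 to 1.51), *Zbp1* by 0.92 (0.37 to 1.48) and *Irf7* by 0.96 (0.36 to 1.55). At 72 h *Ifitm3* differed by 0.90 (0.39 to 1.41) and *Ifit2* by 0.00 (-0.89 to 0.88). At 1 week *Iigp1* (1.39, 0.30 to 2.48) and *Cmpk2* (1.11, 0.44 to 1.77) were the 2 members higher after FT and *Ifitm1* (-1.31, -2.58 to -0.03) the 1 lower, before correction. These genes were picked after their values were seen.

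The counts before correction moved with single libraries. At 2 weeks 19 members became 8 without HS 2 weeks replicate 1, the sample that was lowest of its group for 37 members, and 10 without FT 2 weeks replicate 1. At 1 week the 3 members in either direction became 22 without FT 1 week replicate 1, and 1 without replicate 2 or replicate 3. At 72 h 11 became 4 without HS 72 h replicate 1 or FT 72 h replicate 2, and 7 without FT 72 h replicate 3. The change of the FT minus HS difference from 72 h to 1 week and from 72 h to 2 weeks was tested as an interaction. No member was DE (0% and 0% of all genes), and 1 and 2 members had an unadjusted limma p under 0.05 (3.93% and 2.59% of all genes).

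**Figure D4:**
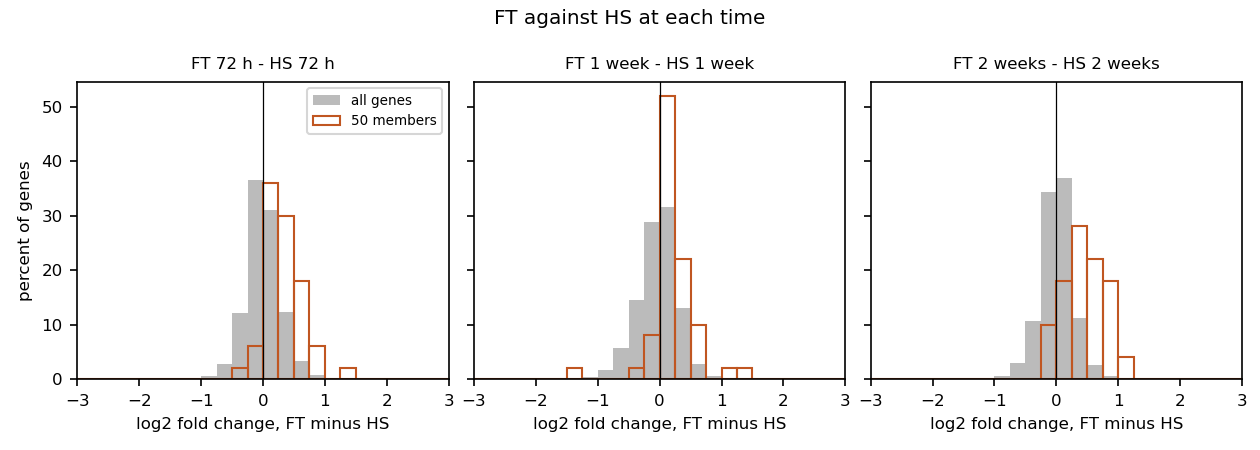
Distribution of the FT minus HS log2 fold change (horizontal axis, log2(CPM + 0.5) scale) at each time, as the percent of all 16810 genes (grey) and of the 50 members (orange outline) in each bin. The members sit to the right of all genes, with 46, 44 and 45 of 50 above 0.

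The genes around the ISGs in the pathway were taken from lists that are not drawn from the 50. Few or none were DE among the receptors, kinases and transcription factors, sensing genes and negative regulators, and more among the chemokines. Of all 16810 genes, 2250, 367 and 543 were DE in either direction in the HS groups and 2057, 681 and 821 in the FT groups. These lists are short, so 0 or 1 DE genes in a list can lie near the share of all genes. Among the ligands, 1 of the 11 listed genes was in the table, *Ifnb1*, which encodes interferon beta. It had 2.32, 2.32 and 3.45 CPM in NI. In HS samples the values were 33.2, 13.8 and 7.79 (72 h), 14.7 and 18.9 (1 week) and 2.81, 5.56 and 9.54 (2 weeks) CPM, and in FT samples 15.5, 7.01 and 4.54 (72 h), 10.6, 1.16 and 1.03 (1 week) and 1.31, 21.5 and 21.7 (2 weeks) CPM. Samples of 1 group differed widely here, and *Ifnb1* was DE only at 72 h after HS, by 2.33 (standard error 0.79; limma adjusted p = 0.0333). At 1 week after HS it differed by 2.44 (limma adjusted p = 0.183) and at 1 week after FT by -0.05. FT 1 week replicate 1, the low sample for most ISGs, had the highest *Ifnb1* of its group. The other listed ligands were not analysed here.

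None of the 6 receptor genes in the table, *Ifnar1* and *Ifnar2* for type I interferons among them, was DE in any comparison with NI. Nor was any of 9 kinases and transcription factors, which include *Jak1* and *Tyk2* of the type I receptor and the interferon regulatory factors *Irf1*, *Irf2*, *Irf3*, *Irf5* and *Irf8*.

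Of 12 genes of nucleic acid sensing and its adaptors, *Ikbke*, which encodes a kinase that activates IRF3 and IRF7, was higher in all 6 groups, by 1.57, 2.83 and 2.99 for HS and 2.06, 3.32 and 2.97 for FT (largest limma adjusted p = 0.000355). *Tlr9*, the endosomal DNA receptor, was lower at 72 h after FT, where it fell by 1.33 (limma adjusted p = 0.0158). Among 8 negative regulators, *Socs1*, an inhibitor of the JAK kinases, was called lower at 72 h after HS (limma adjusted p = 0.015), where its samples had 4, 2 and 2 reads, so that its fold depends on the 0.5 CPM added. In the same list *Trex1*, a DNA exonuclease, was 1.05 higher at 2 weeks after FT (limma adjusted p = 0.00068).

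Of 5 chemokine genes that interferons induce, 2, 3 and 3 were DE and higher in the HS groups (9.08%, 1.7% and 2.43% of all genes). In the FT groups 3, 4 and 4 were (8.14%, 2.86% and 3.53% of all genes). *Cxcl11*, at group means of 0.39 to 1.31 CPM, was DE in none. *Cxcl10* had 14.9, 12.4 and 17.1 CPM in NI. Hemisected cords gave 99.3, 92.1 and 80.2 (72 h), 63.04 and 95.9 (1 week) and 33.5, 92.1 and 73.7 (2 weeks) CPM and transected cords 95.6, 65.4 and 47.8 (72 h), 85.4, 69.5 and 102 (1 week) and 61.9, 142 and 148 (2 weeks) CPM. It was above NI in every sample, by 2.58, 2.37 and 2.02 for HS and 2.15, 2.49 and 2.86 for FT (standard errors 0.34 to 0.38; largest limma adjusted p = 0.000594). *Cxcl9*, which depends mainly on interferon gamma, was not DE at 72 h (-0.48 after HS and 0.00 after FT) and was DE at 1 and 2 weeks (1.30 and 2.91 after HS, 2.33 and 3.24 after FT). From 72 h to 2 weeks after HS *Cxcl9* differed by 3.39 (limma adjusted p = 3.32e-08). The study also reported *Cxcl9* and *Cxcl10* as higher pro-inflammatory genes in these samples, so that their direction is not independent evidence.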

How the data were processed

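The table held 20 samples in 7 groups, assigned by their labels. According to the submitters' processing notes and the methods, reads were mapped with TopHat2 2.0.9 to mm10 (GRCm38) and counted per gene with HTSeq 0.5.4p3. The authors then normalised by library size with edgeR 3.3.6, and the deposited signal is CPM on their effective library size. The strand setting was not given in the sources used here. Values were whole multiples of 1 read (100% of 336200 values within 0.001 of a read), which gave back reads.

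Log2(CPM + 0.5) was fitted with limma 3.58.1 (intensity trend, 1 mean per group, all 20 samples), in R 4.3.3. A gene was DE when it changed 2-fold or more and its p, adjusted by Benjamini-Hochberg across the 16810 genes, was under 0.05. A fold on this scale understates the change of low genes. The fits were also run on simulated counts, drawn with the same relative spread for every gene and sample. That check did not cover single samples that lie apart. Alternatives used edgeR 4.0.16 and DESeq2 1.42.0 on the reads, other scalings, filters, added constants, a replicate block and leaving out each sample. Intervals are 95% from limma. Promoter windows came from RefSeq (GRCm38.p6) and coordinates from GENCODE vM21.

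The members and lists were chosen with earlier results of these data known. Sample values were given for the members of each class DE in the most comparisons with NI and those DE between times most often (*Ifitm2*). For *Sp100*, *Ifit2*, *Ifit3*, *Oasl1*, *Dhx58* and *Rtp4* they were given for some of the groups only. Others were named after their values were seen. Some listed genes are not reported here.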

Additional observations from a re-analysis of the deposited data

Results flagged for a closer look

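Some members differed from NI by unlike amounts at different times of the same lesion, tested as the difference between the times (limma, Benjamini-Hochberg over all genes, and at least 2-fold). After HS, the effect at 1 week exceeded that at 72 h by 1.31 on the log2 scale for *Oas2*, 1.24 for *Mx1* and 1.33 for *Slfn5*, and the difference was -1.32 for *Ifitm2*. At 2 weeks after HS, the difference from 72 h was -1.86 for *Ifitm1*, -1.68 for *Ifitm2*, -1.26 for *Ifi27l2a* and 1.16 for *Lgals3bp*. After FT, the difference from 72 h to 1 week was 1.03 for *Mx1*, -2.40 for *Ifitm1*, -1.24 for *Ifitm2* and -1.34 for *Ifi27l2a*. At 2 weeks after FT it was -2.91 for *Ifitm1*, -1.38 for *Ifitm2* and -1.07 for *Ifi27l2a*. Monocyte markers were highest at 72 h as well, and their part in these differences was not tested. Groups of 2 or 3 samples were too small for a test of single samples that lie apart.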

How the results depend on the processing

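Of 184 DE values of members against NI or between times, none reversed under any alternative, and 184 were kept with 0.1 CPM added, 178 with 1 CPM, 180 with only the 2 groups compared, 183 with median-of-ratios scaling and 148 with columns scaled to the same total. The edgeR quasi-likelihood and likelihood ratio tests kept 184 and DESeq2 183. Scaling to the same total called 15 members instead of 24 at 72 h after HS against NI, and 13 instead of 4 between 72 h and 1 week after HS, where no fold limit called 10. Under it, all genes together had a median change from NI on the log2 scale of -0.52, -0.17 and -0.29 after HS and -0.48, -0.32 and -0.36 after FT. Fitting only the groups compared called 1 instead of 4 between 72 h and 1 week after FT. The deposited columns summed to 777426 to 830481 CPM in NI and to 878070 to 1202190 CPM in injured samples. Scaling to the same total removes that difference by construction. The cause of the unequal totals and of the other shifts was not tested. Leaving out single samples gave 1 to 5 members between 72 h and 1 week after HS, 2 to 10 after FT, and, of members with an unadjusted p under 0.05 between FT and HS, 4 to 16 at 72 h, 1 to 22 at 1 week and 8 to 25 at 2 weeks. At 1 week the edgeR quasi-likelihood and likelihood ratio tests and DESeq2 gave 6, 6 and 6 instead of 3. No member was DE between FT and HS under any of the alternatives run. Over all genes, same-numbered samples across groups did not deviate together (r from -0.39 to 0.38, median 0.00, over 0.1 in 20 of 57 pairs). The numbers were therefore not taken as pairs. Whether the members alone deviate together by number was not tested. After HS, replicate 1 was the lowest of its group for 28 members at 72 h and 37 at 2 weeks. After FT, replicate 1 was the lowest for 39 at 72 h and 39 at 1 week. It was the highest for 29 members at 1 week after HS, 29 at 2 weeks after FT and 27 in NI. A replicate block kept all 184 values and called 29 members instead of 28 at 1 week after HS. Of 169 DE values against NI, 26 were lost without 1 of the samples, and of 15 between times, 7. Against NI, *Mx1* at 2 weeks after HS was not DE in 5 of the alternatives, and *Bst2* and *Rtp4* at 72 h after HS in 3 each.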
